A study of Homo sapiens with 6 samples.

Results

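The expression of 10 genes that mark the epithelial and the mesenchymal state of a cell was examined in A549 cells, taken by their symbols out of 58676 listed genes. All 10 passed the filter on low values (TPM of 1 or more in 3 or more libraries), as did 17408 genes in all. A549 is an established cell line from a human lung adenocarcinoma. RNA sequencing was available for 3 libraries of A549 MOCK, which carry an empty plasmid, and 3 libraries of A549 Rec, which carry human recoverin cDNA. Recoverin (RCVRN) is a calcium-binding protein of the photoreceptors. Both groups were cultured in 2D for 6 days according to the sample labels and, per the study's methods, were stably transduced and selected with puromycin, so that MOCK shares the vector and the selection with Rec. No clone is named, and the untransduced line was not analysed here. The comparison asks whether the position of these cells between the epithelial and the mesenchymal state differs with recoverin.

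Epithelial cells are held together by E-cadherin (CDH1) and express the surface adhesion molecule EpCAM (EPCAM). In the epithelial-mesenchymal transition (EMT), transcription factors of the SNAI, ZEB and TWIST families repress junction genes such as CDH1, while N-cadherin (CDH2), the intermediate filament protein vimentin (VIM) and the matrix protein fibronectin (FN1) are gained. Carcinoma cells often hold intermediate states, in which genes of both kinds are expressed together.

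The label of each group was checked with RCVRN itself, which was at 0 TPM in the 3 MOCK libraries and at 322, 338 and 339 TPM in the Rec libraries. The reads recovered from the TPM numbered 15183490 to 18572167 per library. Mitochondrially encoded genes took 13.3 to 17.3% of the TPM in the replicate 1 and 2 libraries, but 34.5% in MOCK replicate 3 and 26.9% in Rec replicate 3. Since TPM sums to a fixed total, other genes are scaled down in these libraries, and the results are therefore also given with TPM rescaled without the mitochondrially encoded genes. Of 8 epithelial markers, 5 had a mean TPM of at least 1, and their summed TPM was 4680 to 6350 in MOCK and 5990 to 6850 in Rec. Of 9 fibroblast markers only 1 reached that level (COL1A1, mean 4.0 TPM), with COL1A2 at 0 in all libraries. The same count was 1 of 5 for smooth muscle (ACTA2, 23.7 TPM) and 0 of 6 for endothelium. For leukocytes it was 2 of 7 (CD14 at 6.11 and ITGAM at 3.18 TPM), with CD3E at 0. Of 9 alveolar type II cell markers, 3 reached it (ABCA3 at 23.4, NAPSA at 2.97 and SFTPD at 1.77 TPM). Of the others, SFTPA1 was at 0 and NKX2-1 was under 1.

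The level of the mesenchymal filament gene VIM was the highest among the 10 genes, at 467 ± 70.0 TPM (SD, n = 6 libraries), above 98.9% of the 19648 genes detected in every library. CDH1 came next at 137 ± 15.3 TPM, above 95.3% of them, followed by FN1 at 76.4 ± 15.7 and CDH2 at 30.7 ± 2.66 TPM. A549 cells of both groups thus held high transcript levels of both E-cadherin and vimentin. The second epithelial gene, EPCAM, stood far lower at 2.08 ± 0.79 TPM, above 24.2% of the detected genes. In bulk RNA, fewer cells of a kind and less RNA per cell cannot be told apart, so a mixture of cell states and an intermediate state of every cell give the same values.

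**Figure D1:**
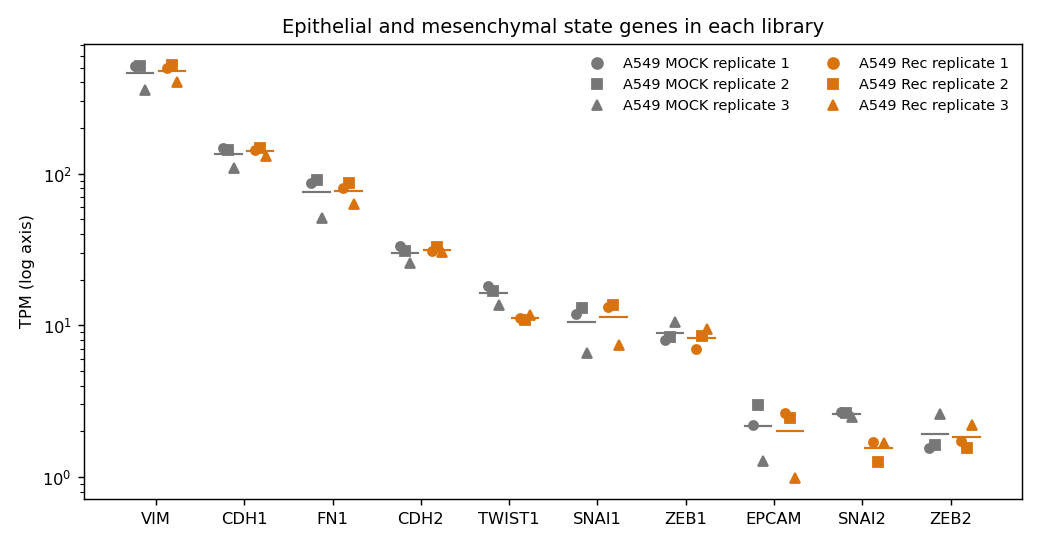
TPM (log axis) of the 10 genes in each of the 6 libraries, ordered by their mean. Points are libraries (grey A549 MOCK, orange A549 Rec, shape by replicate number) and horizontal lines are group means (n = 3). The groups overlap for 8 genes, and the Rec points lie below all MOCK points for TWIST1 and SNAI2.

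The 2 epithelial members were examined individually. CDH1 (ENSG00000039068; chromosome 16, 68737225 to 68835548, plus strand, GRCh38) was at 148, 144 and 109 TPM in MOCK replicates 1, 2 and 3 and at 143, 147 and 131 TPM in Rec. MOCK replicate 3 was the lowest and the groups overlapped. The difference of Rec from MOCK was 0.08 ± 0.15 on the log2(TPM + 1) scale (SE, limma; 95% CI -0.27 to 0.44), with an unadjusted p of 0.599. Rescaled without the mitochondrially encoded genes, the 6 values of CDH1 lay between 166 and 179 TPM.

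EPCAM (ENSG00000119888; chromosome 2, 47345158 to 47387601, plus strand) was at 2.21, 2.98 and 1.27 TPM in MOCK and at 2.62, 2.45 and 0.979 TPM in Rec. Both replicate 3 libraries were the lowest, also when rescaled (1.94 and 1.34 TPM against 2.55 to 3.53 TPM in the others). Only 13 to 37 reads per library lay behind these values, and the 13 reads of Rec replicate 3 have a 95% exact Poisson interval of 6.92 to 22.2, which covers counting error only. The difference was -0.08 ± 0.32 (95% CI -0.82 to 0.67, limma unadjusted p = 0.813), an interval that includes the spread between libraries as well as the few reads.

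Of the mesenchymal members, VIM (ENSG00000026025; chromosome 10, 17228259 to 17237593, plus strand) was at 516, 509 and 356 TPM in MOCK and at 497, 523 and 404 TPM in Rec. The replicate 3 library was the lowest in each group, and the difference was 0.06 ± 0.20 (limma unadjusted p = 0.787). With the mitochondrially encoded genes left out, the pair differences of VIM went from -0.05, 0.04 and 0.18 to 0.01, -0.00 and 0.02. VIM shares 12.7% of its exon bases (GENCODE v44) with VIM-AS1, an antisense gene with 3605 to 6081 reads per library, and 12.0% with a second antisense gene, ENSG00000234961, with 3206 to 4675 reads. The strand setting of the counting is not given in the sources used here, so reads from the shared bases cannot be told apart.

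CDH2 (ENSG00000170558; chromosome 18, 27950966 to 28177446, minus strand), the cadherin that takes the place of E-cadherin in a cadherin switch, was at 33.3, 30.8 and 25.8 TPM in MOCK and at 31.0, 32.8 and 30.6 TPM in Rec. Its groups overlapped, with a difference of 0.08 ± 0.12 (limma unadjusted p = 0.549). FN1 (ENSG00000115414; chromosome 2, 215360440 to 215436172, minus strand) was at 86.2, 91.2 and 51.0 TPM in MOCK and at 80.4, 86.1 and 63.5 TPM in Rec. MOCK replicate 3 held the lowest FN1 value, and the difference was 0.04 ± 0.24 (limma unadjusted p = 0.861).

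Ratios within a library do not depend on its scaling. The TPM of VIM was 3.08 to 3.55 times that of CDH1, with a mean log2 ratio of 1.78 ± 0.06 in MOCK and 1.75 ± 0.11 in Rec (SD, n = 3). CDH1 was 4.21 to 4.69 times as high as CDH2, and FN1 was 0.47 to 0.632 times CDH1. The groups overlapped in each of these ratios. The widest range was that of VIM to EPCAM, from 171 to 412, where the values of MOCK were 234, 171 and 280 and those of Rec 189, 214 and 412.

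The transcription factors followed at lower levels. TWIST1 (ENSG00000122691; chromosome 7, 19020991 to 19117672, minus strand), a basic helix-loop-helix factor, was at 18.2, 16.9 and 13.6 TPM in MOCK and at 11.2, 10.8 and 11.6 TPM in Rec. Every Rec library lay below every MOCK library, with means of 16.2 ± 2.36 and 11.2 ± 0.402 TPM (SD, n = 3), a ratio of 0.691. The difference was -0.49 ± 0.13 (SE; 95% CI -0.79 to -0.18), with an unadjusted p of 0.00655 and an adjusted p of 0.9997 over 17408 genes (limma, Benjamini-Hochberg), and did not pass the test. The reads behind it were 186, 169 and 155 in MOCK and 114, 128 and 124 in Rec, or 510 against 366 in all.

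SNAI2 (ENSG00000019549; chromosome 8, 48917604 to 48921740, minus strand), which encodes the zinc finger repressor Slug, was at 2.69, 2.63 and 2.47 TPM in MOCK and at 1.71, 1.26 and 1.68 TPM in Rec. Its groups did not overlap either, with means of 2.60 ± 0.116 and 1.55 ± 0.251 TPM (SD, n = 3), a ratio of 0.597. The difference was -0.50 ± 0.17 (SE; 95% CI -0.90 to -0.10), with an unadjusted p of 0.0206 and an adjusted p of 0.9997 (limma, Benjamini-Hochberg). The reads were few, 46, 44 and 47 in MOCK and 29, 25 and 30 in Rec. For TWIST1 and for SNAI2 the exact permutation test (two-sided, TPM) gave p = 0.1, the smallest that 3 libraries against 3 allow.

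**Figure D2:**
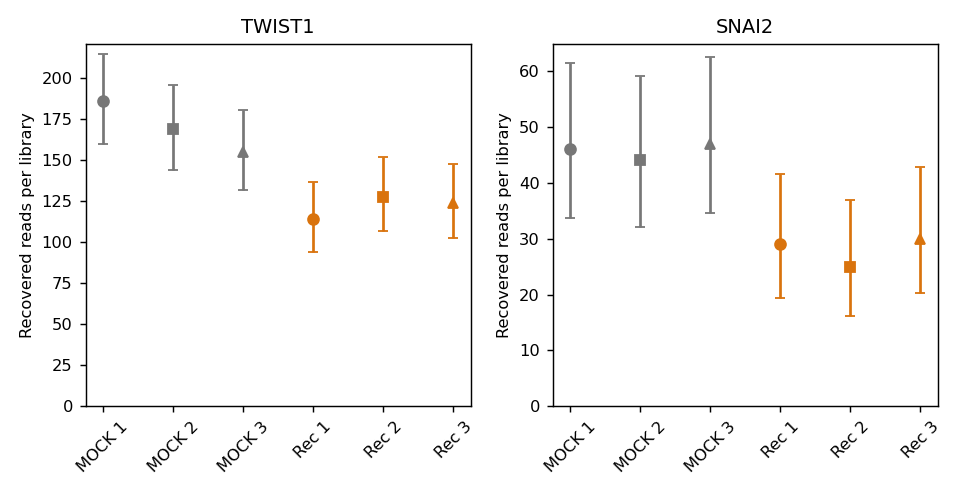
Recovered reads of TWIST1 and SNAI2 in each library, with 95% exact Poisson intervals that cover counting error only (vertical axis from 0). Rec libraries held 114 to 128 reads of TWIST1 and 25 to 30 of SNAI2, all below the MOCK libraries (155 to 186 and 44 to 47), and for both genes some intervals overlap between the groups.

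These counts were read against all tested genes. By limma, 1 of 17408 genes was a DEG (fold change of 2 or more with an adjusted p under 0.05), that is 0.00574%, and this gene was RCVRN. No member was a DEG, by limma or by voom on the recovered reads. At an unadjusted p under 0.05, 2 of the 10 members were lower in Rec, beside 1.04% of all tested genes, and 0 were higher, beside 1.02%. Every Rec library lay below every MOCK library for 2 members, beside 2.69% of all tested genes, and above for 0 members, beside 2.47%. By limma, TWIST1 and SNAI2 stood at ranks 55 and 149 among the unadjusted p-values of all tested genes.

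The groups overlapped for the other SNAI and ZEB genes. SNAI1 (ENSG00000124216; chromosome 20, 49982999 to 49988886, plus strand), which encodes Snail, was at 11.9, 13.0 and 6.55 TPM in MOCK and at 13.2, 13.6 and 7.43 TPM in Rec. The replicate 3 libraries were the lowest in both groups, and the difference was 0.12 ± 0.30 (limma unadjusted p = 0.703). The difference between SNAI1 and SNAI2 in their response was not tested. ZEB1 (ENSG00000148516; chromosome 10, 31318495 to 31529814, plus strand) was at 8.01, 8.31 and 10.5 TPM in MOCK and at 6.94, 8.55 and 9.39 TPM in Rec. ZEB2 (ENSG00000169554; chromosome 2, 144364364 to 144524583, minus strand) was at 1.54, 1.62 and 2.60 TPM in MOCK and at 1.72, 1.55 and 2.21 TPM in Rec. In contrast to SNAI1, these zinc finger homeobox repressors were highest in the replicate 3 libraries, and their groups overlapped with differences of -0.10 ± 0.15 and -0.04 ± 0.21.

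By mean TPM over the 6 libraries of both groups, the order of the 10 levels was VIM, CDH1, FN1, CDH2, TWIST1, SNAI1, ZEB1, EPCAM, SNAI2 and ZEB2. Neither group alone had exactly this order. In MOCK the mean of SNAI2 (2.60 TPM) exceeded that of EPCAM (2.15 TPM). In Rec SNAI1 (11.4 TPM) exceeded TWIST1 (11.2 TPM), and ZEB2 (1.83 TPM) exceeded SNAI2 (1.55 TPM). The ratio between neighbours was tested on the log2 scale over the 6 libraries with an exact sign-flip permutation test (two-sided), adjusted over 9 neighbour pairs. The order was taken from the same 6 libraries, pooled over both groups, so these p-values describe the spread of the ratios and cannot establish the order. From VIM down to TWIST1, each gene exceeded the next in 6 of 6 libraries, as did ZEB1 over EPCAM (permutation p = 0.031, the smallest possible, adjusted p = 0.0562). No neighbour pair had an adjusted p under 0.05. TWIST1 exceeded SNAI1 in 4 of 6 libraries (exact permutation p = 0.156), with a mean log2 ratio of 0.68 in MOCK and 0.02 in Rec. SNAI1 exceeded ZEB1 in 4 of 6 libraries (exact permutation p = 0.344), EPCAM exceeded SNAI2 in 3 (p = 0.875) and SNAI2 exceeded ZEB2 in 2 (p = 0.594). The spread of these ratios includes the difference between the groups. The mean log2 ratio was -0.35 in MOCK and 0.26 in Rec for EPCAM over SNAI2, and 0.48 and -0.23 for SNAI2 over ZEB2.

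The order also depends on the gene length behind the TPM, as recovered from the values. This length was 17315 bases for FN1 and 25058 for ZEB2, against 8390 and 9265 bases in their Ensembl canonical transcripts, a comparison added after the data were seen. With reads scaled to the library total and to the length of the canonical transcript (RPKM on that length), VIM (367 ± 34.0, SD, n = 6), CDH1 (57.9 ± 3.27), FN1 (51.6 ± 7.95), CDH2 (12.5 ± 0.523) and TWIST1 (5.63 ± 1.21) kept their places. On this scale CDH1 and FN1 overlapped, with ranges of 51.2 to 59.6 and 38.7 to 60.0. ZEB2 moved from position 10 to position 8 at 1.70 ± 0.522, above EPCAM (1.10 ± 0.378) and SNAI2 (1.07 ± 0.319).

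Rec was then compared with MOCK within each same-numbered pair. On the log2(TPM + 1) scale, the differences in pairs 1, 2 and 3 were -0.65, -0.60 and -0.21 for TWIST1 and -0.45, -0.68 and -0.37 for SNAI2. These were the 2 members lower in each pair, beside 9.66% of all tested genes. Rescaled without the mitochondrially encoded genes, TWIST1 differed by -0.60, -0.65 and -0.37 and SNAI2 by -0.42, -0.75 and -0.53, where 15.5% of the tested genes were lower in each pair. With the replicate number as a block, limma gave an unadjusted p of 0.00665 for TWIST1 and 0.0358 for SNAI2 (adjusted p = 0.9981 for each).

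SNAI1 was the 1 member higher in each pair, with 0.14, 0.06 and 0.16, beside 13.1% of all tested genes, and rescaled with 0.20, 0.02 and 0.02. The other members changed sign between pairs. CDH1 differed by -0.05, 0.03 and 0.27, CDH2 by -0.10, 0.09 and 0.24, and FN1 by -0.10, -0.08 and 0.31. For these genes and VIM the highest value came from pair 3, in which MOCK had the higher mitochondrial share, and the median over all tested genes was -0.05, 0.03 and 0.08 in the same pairs. Rescaled, the differences were 0.02, -0.01 and 0.11 for CDH1, -0.04, 0.05 and 0.08 for CDH2, and -0.04, -0.12 and 0.16 for FN1. Pair 3 was thus still the highest, where the median over all tested genes was 0.01, -0.01 and -0.06. EPCAM differed by 0.18, -0.21 and -0.20, ZEB1 by -0.18, 0.04 and -0.15, and ZEB2 by 0.10, -0.04 and -0.17.

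**Figure D3:**
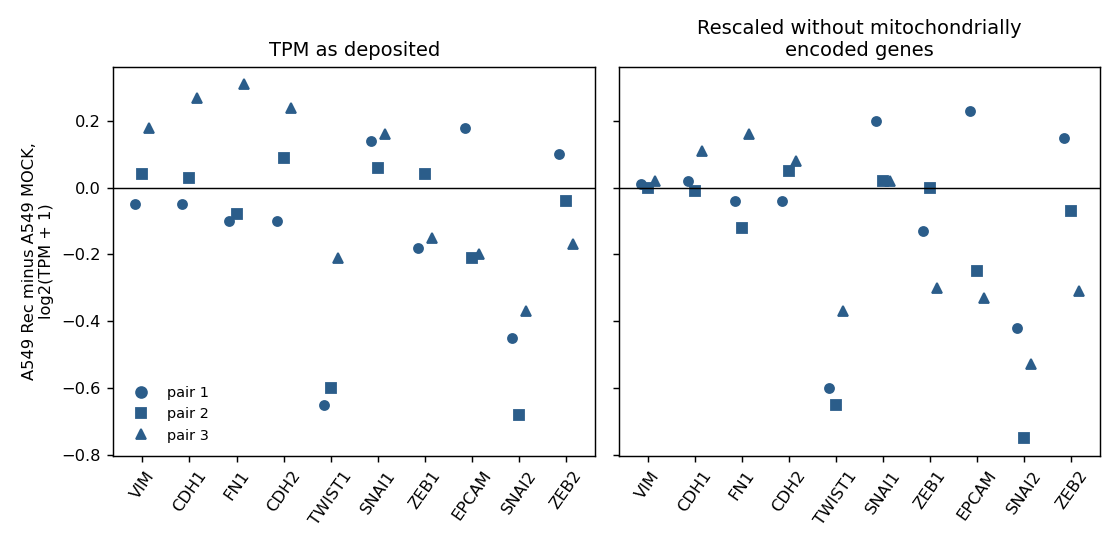
Difference of A549 Rec from A549 MOCK on the log2(TPM + 1) scale in the same-numbered pairs 1, 2 and 3 (shapes), as deposited (left) and rescaled without the mitochondrially encoded genes (right). TWIST1 and SNAI2 lie below 0 in each pair on both scales, from -0.75 to -0.21, and the values of VIM draw together between -0.00 and 0.02 after rescaling.

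For several members the replicate 3 libraries stood further from the others than Rec stood from MOCK. Against the mean of replicates 1 and 2, SNAI1 differed by -0.83 in MOCK and -0.77 in Rec on the log2(TPM + 1) scale, and EPCAM by -0.65 and -0.84. ZEB1 differed by 0.33 and 0.25 and ZEB2 by 0.48 and 0.29. These deviations kept their sign without the mitochondrially encoded genes (SNAI1 -0.50 and -0.59, EPCAM -0.45 and -0.77, ZEB1 0.70 and 0.46, ZEB2 0.80 and 0.46), whereas those of CDH1 went from -0.43 and -0.15 to -0.05 and 0.06. The part of culture or library preparation in this was not tested.

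TWIST1 and SNAI2 were also followed over 16 other ways of fitting the data. Both remained lower in Rec in each of them, TWIST1 by -0.63 to -0.41 and SNAI2 by -0.79 to -0.42 (log2). The unadjusted p was under 0.05 in 16 of 16 for TWIST1 and in 13 of 16 for SNAI2, and rose to 0.0586 without MOCK replicate 1, 0.0585 without MOCK replicate 2 and 0.0735 without Rec replicate 2 for SNAI2. The adjusted p did not go below 0.4973 for TWIST1, reached without replicate 3 of either group, or 0.8798 for SNAI2 (limma, Benjamini-Hochberg).

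**Figure D4:**
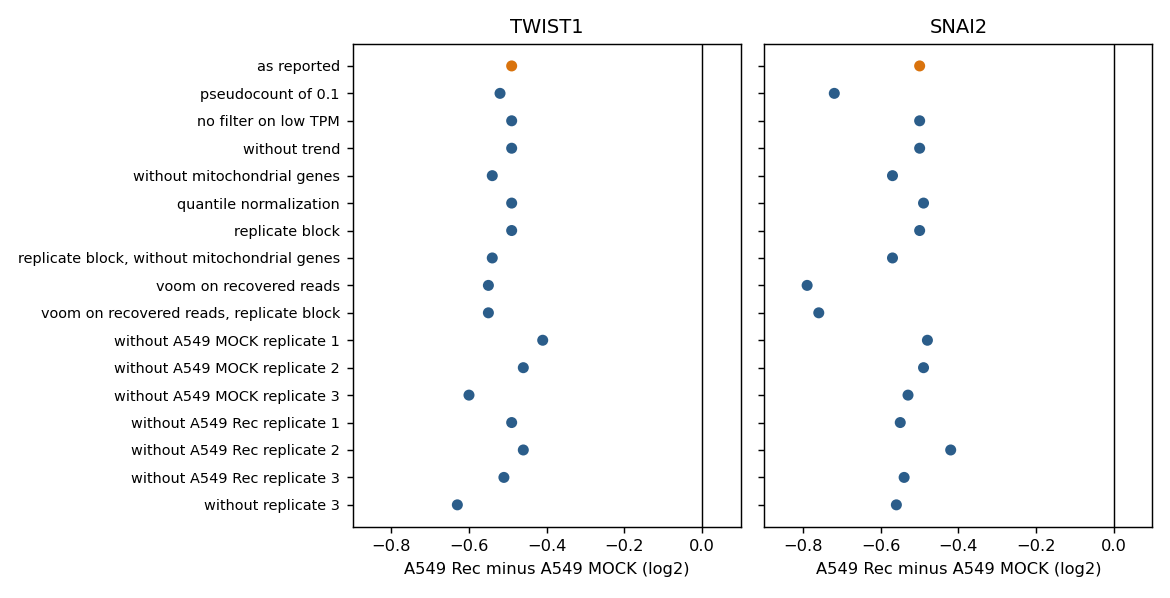
Difference of A549 Rec from A549 MOCK (log2, horizontal axis) for TWIST1 and SNAI2 under each way of fitting (rows; orange, as reported; blue, alternatives). All points lie below 0, between -0.63 and -0.41 for TWIST1 and between -0.79 and -0.42 for SNAI2.

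Other genes of the epithelial state were listed in 3 groups, none with a member at an unadjusted p under 0.05 in either direction by limma. Among 27 junction genes, 21 were tested (median difference 0.08, beside 0.02 over all tested genes). The median turned to -0.08 without MOCK replicate 3 and to -0.02 without Rec replicate 2, where that of all tested genes was -0.06 and -0.02. NECTIN2 (135 TPM), DSG2 (122) and JUP (105), which encode a nectin, a desmosomal cadherin and plakoglobin, had the highest mean levels. CLDN7, OCLN, MARVELD2, MARVELD3 and CDH3 were under 1 TPM in all libraries. PKP2 (plakophilin) was at 5.59 to 6.25 TPM in MOCK and 5.63 to 9.21 in Rec, and TJP1 (ZO-1) at 2.27 to 4.23 and 1.53 to 2.96 TPM, the smallest p-values of this list at 0.139 and 0.146 (limma, unadjusted). PKP2 reached 0.0187 without Rec replicate 3 and TJP1 0.0373 without MOCK replicate 2 (limma, unadjusted).

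Keratins dominated the epithelial surface list, of which 17 of 22 genes were tested (median 0.09). KRT18 (2940 TPM) and KRT8 (2500 TPM), the keratin pair of simple epithelia, and the hair keratin KRT81 (1900 TPM) had the highest means, while KRT19, PRSS8, RAB25 and EPPK1 were under 1 TPM in all libraries. Every Rec library lay above every MOCK library for 3 of the 17, beside 2.47% of all tested genes, named after their values were seen: KRT7, KRT80 and KRT81. KRT80 was at 45.3, 44.3 and 46.3 TPM in MOCK and 46.8, 53.0 and 51.5 TPM in Rec (limma unadjusted p = 0.178), and KRT81 at 1890, 1810 and 1460 against 2000, 2210 and 2030 TPM. Without the mitochondrially encoded genes, KRT18 and KRT81 were higher at an unadjusted p under 0.05 by limma, beside 1.06% of all tested genes, and with the replicate block as well also KRT8, beside 2.02%. By voom KRT81 was higher (unadjusted p = 0.0155), beside 0.804%, and by voom with the block KRT8, KRT18 and KRT81 were, beside 2.07%. In each pair Rec was higher for 6 of the 17 and lower for 0, beside 13.1 and 9.66% of all tested genes. Rescaled, 3 were higher in each pair, beside 10.7%. Without replicate 3 of either group none was higher by limma and CDCP1 was lower (-0.23, limma unadjusted p = 0.0139), beside 3.08% of all tested genes lower. Without MOCK replicate 3 the median of the list turned to -0.04, where that of all tested genes was -0.06.

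Of 15 epithelial transcription and splicing factors, 7 were tested (median 0.08). RBM47 (65.3 TPM), a splicing regulator, and the factors KLF5 (58.5 TPM) and ELF3 (56.3 TPM) led this list, and FOXA1 (4.34 ± 1.06 and 5.28 ± 0.307 TPM in MOCK and Rec, SD, n = 3) and FOXA2 (28.2 ± 5.18 and 31.7 ± 4.86 TPM) had the smallest p-values. GRHL1, GRHL2, OVOL1, OVOL2, ESRP1, ESRP2 and TP63 were under 1 TPM in all libraries. Thus the epithelial splicing regulators ESRP1 and ESRP2 and the grainyhead and OVO-like factors, known for opposing ZEB1, were at low levels in libraries that held 109 to 148 TPM of CDH1.

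Of 39 mesenchymal matrix and surface genes, 25 were tested, and 21 of these had a negative difference (median -0.08, beside 7555 of 17408 and 0.02 over all tested genes). For 12 of the 25, Rec was lower in each pair, beside 9.66% of all tested genes, and without the mitochondrially encoded genes for 16 of the 25, beside 15.5%. Only ITGB3 was lower at an unadjusted p under 0.05, beside 1.04% of all tested genes, and none was a DEG. These counts depended on single libraries. Without Rec replicate 3, 14 of 25 were negative with a median of 0.00, and without MOCK replicate 3, 25 of 25 with a median of -0.20. In the same fits the median of all tested genes was 0.07 and -0.06, and 5845 and 11935 of 17408 were negative.

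ITGB3, the integrin beta 3 subunit, was at 10.8, 10.5 and 10.5 TPM in MOCK and at 7.15, 6.78 and 9.63 TPM in Rec, with a difference of -0.40 ± 0.14 (limma unadjusted p = 0.0253). This p went above 0.05 without the mitochondrially encoded genes (0.0657), without MOCK replicate 1 (0.0645) or 2 (0.0576) and without Rec replicate 1 (0.0869) or 2 (0.0926). In other fits it fell, for example to 0.0205 with the replicate block and 0.00905 with the block and rescaling. By voom with the block it was 0.00312, and by limma without replicate 3 of either group 0.00252. ITGB3 shares 33.2% of its exon bases with another listed gene on the same strand that has 0 reads. MMP2, a gelatinase, was at 17.2, 16.4 and 11.5 against 11.2, 13.4 and 9.69 TPM, with a limma unadjusted p of 0.0882 and, with the replicate block, of 0.0155. This p of MMP2 was 0.00536 rescaled without the mitochondrially encoded genes, and 0.246 and 0.217 without MOCK replicates 1 and 2. Beside ITGB3, every Rec library lay below every MOCK library for COL5A2, COL6A2 and THBS1, named after their values were seen, which makes 4 of 25 beside 2.69% of all tested genes. Thrombospondin 1 (THBS1) was at 5.48, 6.09 and 5.93 TPM in MOCK and 5.09, 4.90 and 4.52 TPM in Rec. The most abundant genes of this list showed differences of at most 0.08: ITGB1 (903 TPM, integrin beta 1), TGFBI (282 TPM) and the hyaluronan receptor CD44 (189 TPM). At under 1 TPM in all libraries were COL1A2, COL3A1, COL6A3, POSTN, LUM, DCN, BGN, CDH11, THY1, PDGFRA, PDGFRB and FAP.

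**Figure D5:**
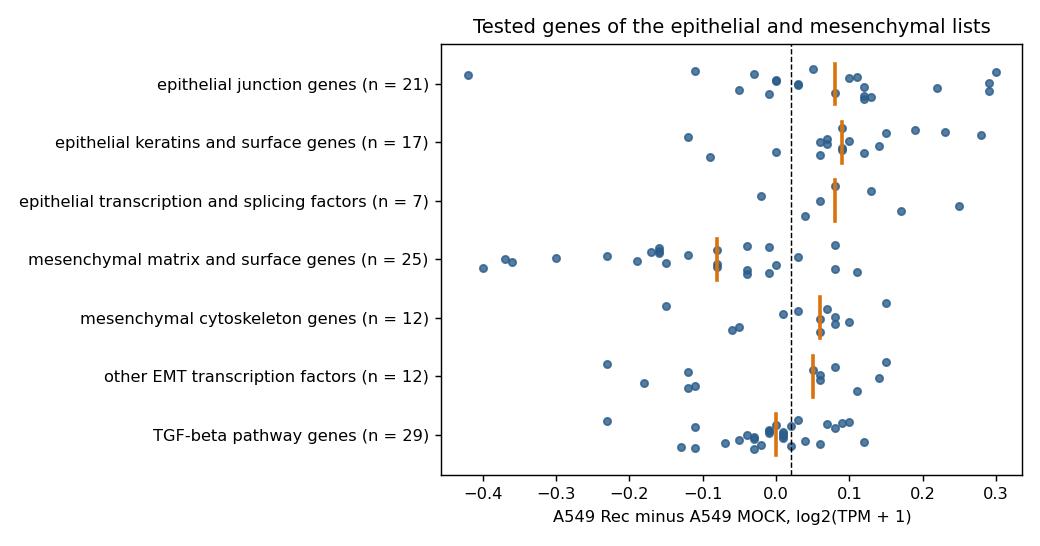
Difference of A549 Rec from A549 MOCK on the log2(TPM + 1) scale for the tested genes of each list (points), with the median of the list (orange) and of all 17408 tested genes (dashed, 0.02). The medians lie between -0.08 for the matrix and surface list, where 21 of 25 points are negative, and 0.09 for the keratin and surface list.

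In the mesenchymal cytoskeleton list, 12 of 16 genes were tested, and none had an unadjusted p under 0.05 (median 0.06, limma). The median turned to -0.08 without MOCK replicate 3, -0.02 without Rec replicate 2 and -0.02 without replicate 3 of either group. In the same fits that of all tested genes was -0.06, -0.02 and -0.01. The calcium-binding proteins S100A6 (1440 TPM) and S100A4 (519 TPM) and filamin A (FLNA, 552 TPM) were the highest, whereas the smooth muscle genes CNN1, MYL9 and DES and the filament gene NES were under 1 TPM in all libraries. ACTA2 (smooth muscle actin) was at 22.5 ± 4.41 TPM in MOCK and 24.8 ± 1.75 in Rec, and TAGLN at 2.13 ± 0.709 and 1.78 ± 0.224 TPM (SD, n = 3). Of their exon bases, 29.1 and 34.1% are shared with genes on the opposite strand. TAGLN also shares 38.1% with a gene on the same strand, ENSG00000280143, which had 145 to 201 reads per library against 28 to 63 for TAGLN.

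Among 20 other EMT transcription factors, 12 were tested and none had an unadjusted p under 0.05 (median 0.05, limma). Without MOCK replicate 3, 12 of 12 were negative with a median of -0.16, beside 11935 of 17408 and -0.06 over all tested genes. The median was -0.03 without Rec replicate 2 and -0.07 without replicate 3 of either group, beside -0.02 and -0.01 over all tested genes. TCF3 (40.6 TPM), MSX2 (33.9 TPM) and SOX4 (28.4 TPM) were the highest. TWIST2, the paralog of TWIST1, was at 8.71 ± 2.00 TPM in MOCK and at 7.26 ± 1.24 TPM in Rec (SD, n = 3). The groups of TWIST2 overlapped, with a difference of -0.23 ± 0.18 (limma unadjusted p = 0.260), and RUNX2 was at 2.61 ± 0.128 and 2.21 ± 0.404 TPM (limma unadjusted p = 0.320).

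TGF-beta is the best known inducer of EMT, and 29 of 31 genes of its pathway were tested (median -0.00). The ligand TGFB1 (321 TPM) and the receptor TGFBR2 (303 TPM) had overlapping groups. The ligand TGFB2 was at 94.0, 91.5 and 90.5 TPM in MOCK and at 77.0, 81.3 and 75.9 TPM in Rec. Every Rec library lay below every MOCK library for this 1 gene of the 29, beside 2.69% of all tested genes. Its difference was -0.23 ± 0.10 (limma unadjusted p = 0.0465, adjusted p = 0.9997). It was the only gene of the pathway with an unadjusted p under 0.05, beside 1.04% of all tested genes lower in Rec at that threshold. This p of TGFB2 went to 0.0578 without the trend, to 0.117 and 0.119 without MOCK replicates 1 and 2, and to 0.151, 0.0892 and 0.126 without Rec replicates 1, 2 and 3. In other fits it fell, for example to 0.0169 with the replicate block and 0.0101 without replicate 3 of either group. By voom on the recovered reads it was 0.0131, and 0.000805 with the block (adjusted p = 0.4932). The receptor ACVR1 followed at 14.6 ± 0.74 TPM in MOCK and 13.5 ± 1.02 in Rec.

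Finally, the tested genes nearest to CDH1 and VIM over the 6 libraries were sought by the mean absolute difference of log2(TPM + 1), each centred on its own mean. For CDH1 these were ECHS1, a mitochondrial fatty acid oxidation enzyme (0.0074), and the ribosomal protein gene RPS4X (0.0095). For VIM they were the mitochondrial ribosomal protein gene MRPL40 (0.011) and the intermediate filament gene SYNM (0.011). All genes of a library share its scaling, so the low values of the replicate 3 libraries enter the measure.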

How the data were processed

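RNA sequencing of 3 A549 MOCK and 3 A549 Rec libraries was analysed, grouped and numbered by the sample labels. Per the study's methods and the submitters' processing notes, the authors trimmed reads with Trimmomatic 0.38, mapped them with HISAT2 2.1.0 and counted them with featureCounts 1.6.3. The notes also name a mouse build, but the gene identifiers and coordinates are human GRCh38. The annotation release and strand setting are not given in the sources used here. The authors deposited the values as TPM (reads per gene length, scaled to a fixed sum per library). Depth was recovered from them, since each value equals whole reads, times a constant of the library, over the gene length. On simulated data 97.8% of 28471 genes were recovered exactly. The simulation used the recovered lengths, so it does not test whether those lengths are right. Of 29900 detected genes, 14535 had a recovered length equal to the exon length of GENCODE v44. Against that annotation it was 4950 and 8583 bases for CDH2, 3392 and 3281 for SNAI2, and 2033 and 1997 for TWIST1.

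Genes reaching 1 TPM in 3 or more libraries were tested with limma 3.58.1 (R 4.3.3, eBayes with trend) on log2(TPM + 1), which understates changes of low genes. DEGs were genes with a fold change of 2 or more and a p, adjusted after Benjamini and Hochberg, under 0.05. Nothing in the labels says that the replicates were separate cultures, so p-values measure the spread between libraries, which may be technical. The libraries were paired by the replicate numbers of the labels, and a replicate block was fitted as an alternative. Deviations from the group means correlated by 0.115, 0.164 and 0.342 between same-numbered libraries (17408 genes). Libraries with unlike numbers were not compared, and both replicate 3 libraries had a high mitochondrial share. These correlations therefore cannot show that same-numbered libraries belong together. The members and gene lists were chosen with earlier results of these data known. Genes named beside the members are RCVRN, the 3 highest by mean TPM and the 2 with the smallest p of each list, and the 2 nearest to CDH1 and to VIM. A few genes of the lists are not reported here.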

Additional observations from a re-analysis of the deposited data

How the results depend on the processing

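The limits are the 3 libraries per group, the mitochondrial share of the replicate 3 libraries and the low reads of SNAI2 and EPCAM. The number of DEGs was 1 higher (RCVRN) and 0 lower in Rec as reported. Without a filter on low TPM and without the trend these were 2 and 4, and 3 were higher by voom on the recovered reads with the replicate block (voom was chosen after seeing the data). Leaving out libraries gave 1 to 2 higher and 0 to 1 lower. None of these genes was a member. At an unadjusted p under 0.05, 178 genes were higher and 181 lower. These were 364 and 351 without the filter, 396 and 319 with the replicate block, 352 and 523 with the block and rescaling without mitochondrially encoded genes, and 361 and 420 by voom with the block. Leaving out libraries gave 113 to 450 higher and 162 to 537 lower, of which 450 and 537 came without replicate 3 of either group. Rescaling alone gave 185 and 243. Members lower at an unadjusted p under 0.05 numbered 1 to 2 when libraries were left out (1, TWIST1, without MOCK replicate 1, MOCK replicate 2 or Rec replicate 2) and 2 in the other alternatives. The paired fit changed no call of a member. Matrix and surface genes lower at an unadjusted p under 0.05 numbered 1 as reported, 2 with the block, 7 with the block and rescaling, 4 by voom, 8 by voom with the block and 5 without replicate 3, and 0 without MOCK replicate 1, MOCK replicate 2, Rec replicate 1 or Rec replicate 2. Of the 29 tested TGF-beta genes, 1 was lower as reported, beside 1.04% of all tested genes. The count was 2 with the block and rescaling, by voom with the block and without replicate 3, beside 3.01, 2.41 and 3.08%. These were TGFB2 with LTBP3 in the first 2 fits and with TGFBR2 in the last. In the fits where TGFB2 lost its call, 0 were lower. Of the 21 tested junction genes, JUP (0.19) and PKP2 (0.33) were higher under 0.05 by voom with the block, beside 2.07% of all tested genes. In the same fit TJP1 (-0.58) was lower, beside 2.41%. Without MOCK replicate 1, CRB3 (0.46) was higher, beside 1.17%.

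Differences of members that did not pass the test changed sign in several fits; the cause was not tested. Without MOCK replicate 3 these were -0.06 for CDH1, -0.02 for CDH2, -0.12 for VIM, -0.22 for FN1, 0.01 for ZEB1, 0.13 for ZEB2 and -0.16 for SNAI1, and 0.01 for TAGLN. Without replicate 3 of either group they were -0.01 for CDH1, 0.00 for CDH2, -0.01 for VIM, -0.09 for FN1 and 0.03 for ZEB2, and -0.05 for ACTA2. Without Rec replicate 2 they were -0.02 for VIM, -0.05 for FN1, 0.04 for ZEB2 and -0.02 for SNAI1. EPCAM was 0.11 without MOCK replicate 2 and 0.20 without Rec replicate 3, and ZEB1 was 0.01 without Rec replicate 1. Rescaled, FN1 was 0.00, with and without the block. Over the fits that left out libraries, the highest value was 0.16 for CDH1, 0.15 for CDH2, 0.17 for VIM, 0.19 for FN1, 0.38 for SNAI1 and 0.28 for ACTA2, and the lowest was -0.29 for EPCAM, -0.18 for ZEB1, -0.13 for ZEB2 and -0.32 for TAGLN. TWIST1 and SNAI2 did not change sign.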
